A study of Rattus norvegicus with 4 samples.

Results

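The 97 transcripts described here are the most abundant long non-coding RNA (lncRNA) transcripts of cultured rat cardiomyocytes, out of 17934 lncRNA transcripts listed. Each transcript's read count was divided by its library's sum of lncRNA counts, the shares were averaged over the 4 libraries, and the top 100 transcripts were taken. The 3 of these 100 that lie in a set interval of chromosome 13 (ranks 1, 5 and 49) were then removed and not replaced. The members were chosen by their levels in these same libraries, so levels are a description and carry no test. At the edge, ranks 99 and 100 (NONRATT007162.2 and NONRATT004625.2) each averaged 0.136% of the lncRNA counts. The next transcripts outside, NONRATT016013.2 and NONRATT013879.2, each averaged 0.135%.

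Cardiomyocytes were cultured from newborn Sprague-Dawley rats, 1 to 2 days old, and their RNA was sequenced. The groups were high glucose for 48 h, normal glucose for 48 h, high glucose for 24 h and normal glucose for 24 h, with 1 library each. High glucose medium held 33 mmol/l glucose, and normal glucose medium held 5 mmol/l glucose with 28 mmol/l mannitol, a sugar alcohol that evens out the osmolality. All groups were plated in M199 medium with 2 mM carnitine, 5 mM creatine and 5 mM taurine. In such cultures high glucose is used to provoke oxidative stress and cell death. The labels do not say whether libraries came from separate cultures or how many animals were pooled. The tables analysed here list lncRNA transcripts and no protein-coding genes, so the labelled cell type could not be checked against its markers. With 1 library per group, differences between a pair of libraries cannot be set against the spread of replicates, and they carry no p-value.

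lncRNAs are transcripts that are not translated into protein and are conventionally at least 200 nt long. Some stay at their site of synthesis and act on nearby genes, others scaffold nuclear bodies or bind proteins and small RNAs in the cytoplasm, and many have no known role. In heart muscle, lncRNAs are known as regulators of chromatin and of the response to stress. The identifiers of the members are not paired with gene names in the sources used here, and neither the 97 members nor any other listed transcript matched the reference gene table. They are therefore named by identifier, with no role, and all positions refer to build rn6 of the rat genome.

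The members were long. Their median length was 2691 nt (range 217 to 7366 nt), against 775 nt for the 7321 measured transcripts, that is, those with a mean of at least 1 FPKM (reads scaled by transcript length and library total) and a length of at least 200 nt. Transcripts of 2 kb or more made up 69 of the 97 members (71.1%), against 10.9% of the measured transcripts. A longer transcript collects more reads at the same level per length, so a ranking by reads favours length. Ranked by mean FPKM instead, all 97 members were in the top 500 and 49 were in the top 100. Their mean FPKM ran from 21.5 to 3101 with a median of 55.9, against a median of 2.86 over the measured transcripts.

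A single block without introns, where the span is no longer than the transcript, was found for 52 members (53.6%), against 45.1% of the measured transcripts, and 45 members were spliced. No other listed transcript overlapped 61 members (62.9%), against 65.5% of the measured transcripts. Identifiers of the NONCODE database marked 96 members, and the remaining one is listed as MSTRG.12704.2. No member carried an Ensembl identifier. The members lay on 20 chromosomes at 95 loci, a locus being a chain of overlapping spans, with 13 on chromosome 2 (13.4%, against 6.83% of the measured transcripts), 11 on chromosome 1 (11.3%, against 12.0%) and 0 on chromosome 19 (against 2.73%). One locus held 3 members, NONRATT021428.2, NONRATT021422.2 and NONRATT021427.2 (together spanning chromosome 4, 81235168 to 81243700), which overlap each other and may share reads. The tables give no strand, so reads of an overlapping or antisense gene could not be separated from those of a member. Members also lay end to end without overlap, 870 bases apart on chromosome X (NONRATT031072.2 and NONRATT031073.2) and 668 bases apart on chromosome 2 (NONRATT016140.2 and NONRATT016141.2).

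The members took about the same share of the lncRNA reads in every library. That share was 24.1% (95% Wilson interval 24.0 to 24.2) in high glucose and 25.2% (25.1 to 25.3) in normal glucose at 48 h. At 24 h it was 24.2% (24.2 to 24.3) in high glucose and 25.2% (25.1 to 25.3) in normal glucose. Both high glucose libraries stood about 1 percentage point below both normal glucose libraries, and the counting intervals of the media did not overlap. The members were chosen by these same shares, so this separation is a description and no test of the medium. Without the 10 members that differed at least 2-fold between libraries, the direction at 48 h turned, with 22.5% in high and 22.2% in normal glucose. At 24 h the share was then 21.7% in high and 22.2% in normal glucose. Those 10 were picked by their range in these same libraries, and high glucose at 48 h was lowest for 6 of them. The turn at 48 h therefore follows in part from which members were left out. NONRATT007996.2 alone took 0.412% in high and 1.14% in normal glucose at 48 h. The spread between cultures is not known, and intervals cover counting error only. Set against the whole library total, the members took 1.53% in high glucose and 1.82% in normal glucose at 48 h, and 1.66% and 1.79% at 24 h in the same order of media. In bulk RNA, fewer cells of a type and less RNA per cell cannot be told apart.

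The lncRNA counts were not dominated by a few transcripts. In any library the 10 most abundant members held 6.31% to 7.55% of all lncRNA counts. Taken over all listed transcripts, the chromosome 13 interval included, the top 10 of each library held 7.97% to 8.88%. Between 387 and 402 transcripts were needed to reach 50% of the lncRNA counts. lncRNA counts summed to between 846946 and 1075428 per library, and members had a median of 1520 to 1995 reads in a library. CPM values below are counts scaled by the library total that the FPKM values imply (11877876 to 15654184), on which 1 read is worth 0.0639 to 0.0842 CPM. The high glucose library at 48 h had the lowest lncRNA share of its total, 6.36%, against 6.83% to 7.24% in the others. Its part in the differences below is given by leaving it out.

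The leading members kept high ranks in most libraries, with some changes of place. NONRATT007996.2, described with the glucose comparison at 48 h, ranked 12 in high glucose at 48 h and 2 in the other 3 libraries. By reads, NONRATT011827.2 (spliced, 1379 nt, chromosome 16, 19384862 to 19390410) led with a mean of 1.04% of the lncRNA counts. It stood at 676 CPM in high and 713 CPM in normal glucose at 48 h, and at 657 CPM in high and 828 CPM in normal glucose at 24 h. The highest of these values was 1.26 times the lowest, and it ranked 3 or 4 in each library among all lncRNA transcripts. NONRATT017935.2 (spliced, 5305 nt, chromosome 3, 6539099 to 6581345) stood at 484 CPM in high and 710 CPM in normal glucose at 48 h, and at 657 CPM in high and 786 CPM in normal glucose at 24 h. It was lowest in the high glucose library at both times and also ranked 3 or 4 in each library. NONRATT030152.2 (4467 nt in 1 block, chromosome 9, 81190189 to 81194655) ranked 5 in all 4 libraries, with 476 CPM in high and 637 CPM in normal glucose at 48 h and 515 CPM in high and 593 CPM in normal glucose at 24 h. NONRATT024061.2 (2691 nt in 1 block, chromosome 6, 24181526 to 24184216) ranked 6 in 3 libraries and 8 in high glucose at 48 h, where it stood at 391 CPM.

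The other members among the 10 most abundant had ratios of highest to lowest CPM from 1.13 to 1.34. NONRATT031072.2 (chromosome X, 74324613 to 74331978) is a single block of 7366 nt, the longest member. It stood at 442 CPM in high and 418 CPM in normal glucose at 48 h, and at 439 CPM in high and 393 CPM in normal glucose at 24 h. NONRATT001117.2 (5462 nt in 1 block, chromosome 1, 177709339 to 177714800) stayed between 382 and 432 CPM, and NONRATT016243.2 (spliced, 3678 nt, chromosome 2, 96593185 to 96608200) between 308 and 355 CPM. NONRATT026609.2 (spliced, 4007 nt, chromosome 7, 23543124 to 23548539) was highest in normal glucose at 48 h, at 395 CPM, and lay between 294 and 305 CPM in the other 3 libraries. The highest value of NONRATT021428.2 (1644 nt) was 1.33 times its lowest. On the scale per length these neighbours in the read ranking differ widely, from 57.4 mean FPKM for NONRATT031072.2 to 186 mean FPKM for NONRATT021428.2.

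**Figure D1:**
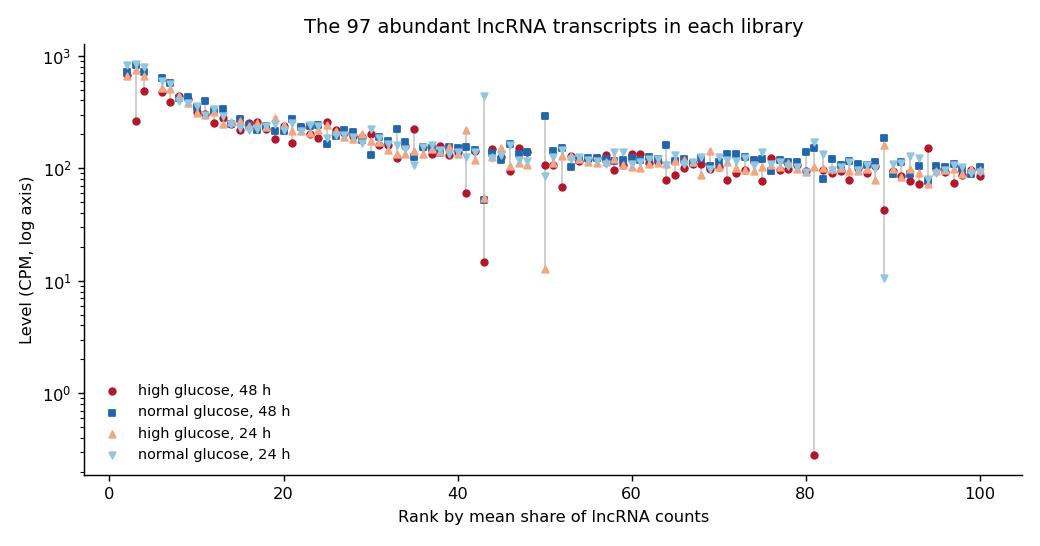
Level of each of the 97 members (vertical log axis, CPM) against its rank by mean share of lncRNA counts, with 1 symbol per library and a grey line from the lowest to the highest library. Most symbols of a member nearly coincide, while a few members, among them rank 81 with 0.281 CPM in high glucose at 48 h, spread over a wide range.

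Most members were steady across medium and time. The ratio of the highest to the lowest CPM over the 4 libraries had a median of 1.29 (quartiles 1.17 and 1.48), and the coefficient of variation over the libraries had a median of 10.9%. This ratio was under 1.25 for 46 of the 97 members, under 1.5 for 74 and at least 2 for 10 (10.3%), against 35.2% of the measured transcripts at 2 or more. It was at least 8 for 4 members (4.12%), against 7.36% of the measured transcripts. No member had a ratio between 1.80 and 2.04. The background share includes transcripts with few reads, whose ratios are widened by counting error. Among transcripts with more similar counts, 12.0% of ranks 101 to 200, 10.3% of ranks 201 to 500 and 16.4% of ranks 501 to 1000 had a ratio of 2 or more, with medians of 1.28, 1.33 and 1.39. The share of the 97 members past 2-fold was thus close to that of the transcripts ranked 101 to 500.

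**Figure D2:**
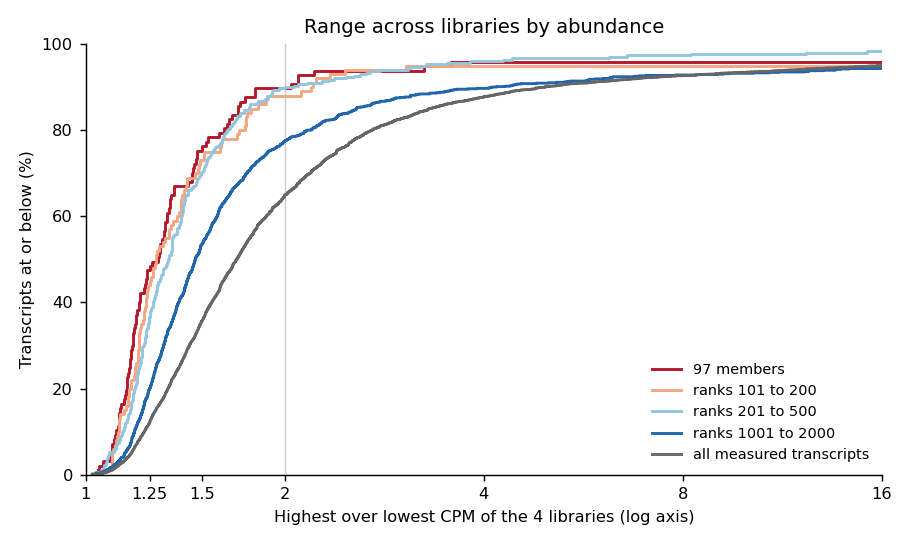
Percentage of transcripts (vertical axis) whose ratio of highest to lowest CPM over the 4 libraries is at or below the value on the horizontal log axis, for the 97 members, 3 lower ranges of abundance and all 7321 measured transcripts. The curves of the members and of ranks 101 to 500 run close together, with medians from 1.28 to 1.33, and lie left of the curve of all measured transcripts.

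The steadiest member was NONRATT018825.2 (3949 nt in 1 block, chromosome 3, 152460446 to 152464394). It stood at 246 CPM in high and 248 CPM in normal glucose at 48 h, and at 256 CPM in high and 245 CPM in normal glucose at 24 h, a ratio of highest to lowest of 1.04. NONRATT007399.2 (2053 nt in 1 block, chromosome 12, 24313389 to 24315441) lay between 109 and 114 CPM. NONRATT024777.2 (2444 nt in 1 block, chromosome 6, 4255699 to 4258142) lay between 224 and 238 CPM. All 3 are single blocks of over 2 kb with no overlapping listed transcript. Members of 2 kb or more had a median ratio of 1.21, with 4 of 69 at 2 or more, and shorter members had a median of 1.44, with 6 of 28 at 2 or more. Single-block members had a median of 1.23 and spliced members 1.30.

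Ranks in single libraries are a description, since the members were chosen by their mean share over these same libraries. When each library was ranked by itself, 70 of the 97 members were in the top 100 of all 4 libraries and 93 were in the top 200 of all 4. The top 100 of high glucose and of normal glucose at 24 h shared 90 transcripts, and those at 48 h shared 81. In normal glucose the lists of 48 h and 24 h shared 88, and in high glucose 81. The 3 lists of the other libraries shared 81 to 83 with that of high glucose at 48 h and 86 to 90 among themselves. Only 3 members fell below rank 1000 in any library.

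The first comparison asked which abundant lncRNAs differed between high and normal glucose at 48 h. Past 2-fold, 0 of the 97 members were higher in high glucose and 8 were lower, on log2 (CPM + 1), a scale that understates changes of low transcripts. These 8 are 8.25% of the members, against 7.17% of the measured transcripts past 2-fold in either direction (2.85% higher and 4.32% lower), so the share was close to the background. The split depended on scaling. With TMM factors, with size factors, or with libraries rescaled to the same lncRNA sum, 2 members were higher and 6 lower. TMM factors moved the median log2 ratio of all measured transcripts from -0.14 to -0.01, so every direction stated for 48 h is relative to this.

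NONRATT002849.2 (1680 nt in 1 block, chromosome 1, 146069775 to 146071454, overlapping no other listed transcript) had almost no reads in 1 library. It had 4 reads in high glucose and 2246 in normal glucose at 48 h, and 1604 in high and 2049 in normal glucose at 24 h. This corresponds to 0.281, 151, 102 and 173 CPM in the same order of libraries. At 48 h it was 538-fold lower in high glucose (95% counting interval 210 to 1975), and at 24 h 1.68-fold lower (1.58 to 1.80). Among all lncRNAs it ranked 9535 in that library and between 32 and 75 in the other 3.

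NONRATT018275.2 (spliced, 4317 nt, chromosome 3, 62486953 to 62491356) stood at 43.0 CPM in high and 184 CPM in normal glucose at 48 h, and at 160 CPM in high and 10.5 CPM in normal glucose at 24 h. At 48 h it was 4.29-fold lower in high glucose (3.93 to 4.69), whereas at 24 h it was 15.2-fold higher (12.7 to 18.4), so the directions were opposite. Its locus held 4 other listed transcripts, and the member took 98.5% and 99.3% of the reads there in high and normal glucose at 48 h, and 98.2% and 77.6% at 24 h.

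The other members past 2-fold at 48 h were lower in high glucose by smaller factors. NONRATT007996.2 (chromosome 12, 39957131 to 39959077, spliced), the shortest member at 217 nt and the highest per length, stood at 1207 FPKM in high and 3803 FPKM in normal glucose at 48 h, and at 3469 FPKM in high and 3924 FPKM in normal glucose at 24 h. In CPM the high glucose value was 3.15-fold lower at 48 h (3.04 to 3.27) and 1.13-fold lower at 24 h (1.10 to 1.16). NONRATT002642.2 (905 nt in 1 block, chromosome 1, 101449124 to 101450028) stood at 60.8 CPM in high and 154 CPM in normal glucose at 48 h, and at 217 CPM in high and 126 CPM in normal glucose at 24 h. It was the lowest of its 4 libraries in high glucose at 48 h and the highest in high glucose at 24 h.

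NONRATT004831.2 (chromosome 10, 85782433 to 85785130) and NONRATT003473.2 (chromosome 1, 221200983 to 221204272), which are single blocks named here after their values were seen, were 2.21-fold (2.05 to 2.39) and 2.04-fold (1.90 to 2.20) lower in high glucose at 48 h. At 24 h NONRATT004831.2 stood at 129 CPM in high and 144 CPM in normal glucose, and NONRATT003473.2 at 109 CPM in high and 108 CPM in normal glucose. NONRATT003473.2 lies 42184 bases from another member, NONRATT003468.2, whose highest CPM was 1.13 times its lowest. With TMM factors, size factors or the same lncRNA sum, 6 of the 8 members stayed past 2-fold.

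No member reached 2-fold higher in high glucose at 48 h on the library totals. NONRATT026391.2 (spliced, 716 nt, chromosome 7, 2972906 to 2973953) came closest, with 152 CPM in high and 76.4 CPM in normal glucose at 48 h, 1.99-fold higher (1.85 to 2.14). At 24 h it stood at 72.8 CPM in high and 80.2 CPM in normal glucose, so the 48 h high glucose library stood apart from the other 3. Its locus held 3 other listed transcripts. NONRATT026389.2, one of these, stood at 13.5 CPM in high and 27.3 CPM in normal glucose at 48 h, the opposite direction. The member took 89.2% of the reads of the locus in high and 67.4% in normal glucose at 48 h, and 78.6% and 80.0% at 24 h. The sum over the locus was 171 CPM in high and 113 CPM in normal glucose at 48 h. The sources used here do not say how reads were divided between these overlapping transcripts.

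NONRATT009788.2 (1895 nt in 1 block, chromosome 14, 17969430 to 17971324) was the next highest in high glucose at 48 h. It stood at 222 CPM in high and 125 CPM in normal glucose, 1.78-fold higher (1.68 to 1.88). At 24 h it stood at 142 CPM in high and 106 CPM in normal glucose, 1.34-fold higher (1.25 to 1.44). Among members with a higher value in high glucose at both times, it had the largest smaller ratio. NONRATT015286.2 (spliced, 810 nt, chromosome 2, 143674623 to 143687635) followed, with ratios of 1.59 at 48 h (1.51 to 1.67) and 1.29 at 24 h (1.23 to 1.36).

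At 24 h, 1 member was higher and 2 were lower in high glucose past 2-fold. These 3 are 3.09% of the members, against 4.89% of the measured transcripts past 2-fold (2.34% higher and 2.55% lower). The higher one was NONRATT018275.2. Next came NONRATT002642.2, 1.72-fold higher (1.62 to 1.83), with the opposite direction at 48 h. The lower ones were NONRATT004088.2 and NONRATT004188.2, which were lower past 2-fold at 48 h as well. Within 1.5-fold of each other in the media lay 91 of the 97 members at 24 h and 80 at 48 h. Of the 7321 measured transcripts, 6529 and 5883 did so at 24 h and 48 h.

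NONRATT004088.2 (spliced, 905 nt, chromosome 10, 14088182 to 14089332) stood at 14.6 CPM in high and 52.6 CPM in normal glucose at 48 h, and at 53.9 CPM in high and 438 CPM in normal glucose at 24 h. High glucose stood 3.62-fold lower at 48 h (3.10 to 4.24) and 8.13-fold lower at 24 h (7.55 to 8.75). The normal glucose library at 24 h stood far above the other 3. The 1 other transcript at its locus had 1 or 2 reads in each library.

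NONRATT004188.2 (3027 nt in 1 block, chromosome 10, 31237556 to 31240582, alone at its locus) stood at 108 CPM in high and 290 CPM in normal glucose at 48 h, and at 12.6 CPM in high and 85.3 CPM in normal glucose at 24 h. High glucose stood 2.70-fold lower at 48 h (2.54 to 2.86) and 6.78-fold lower at 24 h (5.81 to 7.93). Both media had the higher value at 48 h.

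Counting error was small beside many of these ratios. The 95% counting interval of the ratio excluded 1 for 20 members above and 61 below at 48 h, and for 17 above and 49 below at 24 h. This count was not taken over the measured transcripts, so it has no background share. It reflects the many reads of the members and the scaling by library totals, and it is not a result particular to the members. The median member was lower in high glucose at both times on the library totals, with a log2 ratio of -0.15 at 48 h and -0.10 at 24 h. The medians of all measured transcripts were -0.14 and -0.04. At 48 h 73 of the 97 members lay below 0 and at 24 h 70, against 63.6% and 55.4% of the measured transcripts. The members' counts turned with the scaling at 48 h, to 40 below 0 with TMM factors and 42 with the same lncRNA sum. At 24 h they were 59 and 54. With TMM factors 50.9% and 50.4% of the measured transcripts lay below 0 at 48 h and 24 h. The summed CPM of the members in high glucose was 0.841 times that in normal glucose at 48 h and 0.922 times at 24 h. For all other listed transcripts these ratios were 0.891 and 0.970. Without the 10 members that differed at least 2-fold between libraries, the remaining 87 gave 0.892 and 0.935.

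**Figure D3:**
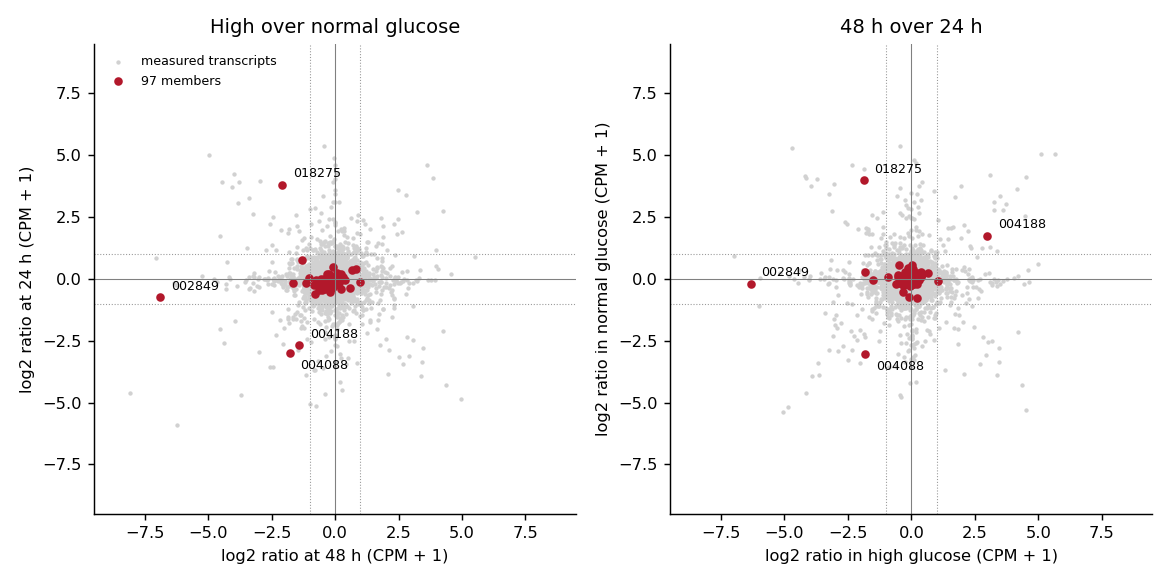
The log2 ratios (CPM + 1) of high over normal glucose at 48 h and at 24 h (left panel) and of 48 h over 24 h in high and in normal glucose (right panel), with the 97 members over all 7321 measured transcripts and dotted lines at 2-fold. Most members sit at the centre, and the few outside are labelled with the digits of their NONCODE identifier, such as that of NONRATT018275.2 at -2.08 and 3.81 on the left.

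The comparison over both times asked which members differed between the media beyond the disagreement of the times. With time as a covariate, 0 of the 97 members passed the adjusted threshold of 0.05 in edgeR (quasi-likelihood). The same fit called 1 of the 7321 measured transcripts (0.0137%), with p-values adjusted over all of them. At an unadjusted p under 0.05, 2 members were higher and 12 lower in high glucose, against 4.75% of the measured transcripts (1.73% higher and 3.02% lower). With TMM factors 2 members were higher and 5 lower, against 167 higher and 154 lower of the 7321 measured transcripts. The members' smallest adjusted p was 0.434, that of NONRATT004088.2, lower in 2 of 2 pairs of libraries with a fitted log2 change of -2.44 (-4.07 to -0.62 over the alternatives). NONRATT004188.2 had a fitted log2 change of -2.09 and an adjusted p of 0.574 by edgeR, lower in 2 of 2 pairs.

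These 2 members passed in DESeq2, with adjusted p-values of 1.65e-05 for NONRATT004088.2 and 0.00321 for NONRATT004188.2, where 0.314% of the measured transcripts were called. They also passed in edgeR without the filter on low values (0.251% of 17934 called), at 0.00585 and 0.0224. Over the 11 alternatives the adjusted p of NONRATT004088.2 ran from 1.65e-05 to 0.999 and that of NONRATT004188.2 from 0.00321 to 1.00 (edgeR, DESeq2 or limma). The times stood in for replicates in these fits.

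Between 48 h and 24 h the members differed little in normal glucose. Past 2-fold, 2 members were higher at 48 h and 1 was lower, 3.09% of the members, against 4.67% of the measured transcripts (2.02% higher and 2.65% lower). The higher ones were NONRATT018275.2, 17.5-fold (14.6 to 21.1), and NONRATT004188.2, 3.40-fold (3.17 to 3.64). The lower one was NONRATT004088.2, 8.32-fold (7.72 to 8.98). Next lowest was MSTRG.12704.2 (spliced, 1521 nt, chromosome 20, 19483978 to 19485844), with 132 CPM at 48 h and 225 CPM at 24 h in normal glucose, and 200 CPM at 48 h and 173 CPM at 24 h in high glucose. Within 1.25-fold between the times lay 87 of the 97 members, against 5162 of the 7321 measured transcripts, which include transcripts with few reads.

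In high glucose, 2 members were higher and 5 lower at 48 h than at 24 h, past 2-fold. These 7 are 7.22% of the members, against 6.91% of the measured transcripts (2.57% higher and 4.34% lower). This comparison shares the high glucose library at 48 h with the glucose comparison at 48 h. NONRATT004188.2 was 8.55-fold higher at 48 h (7.36 to 9.96) and NONRATT026391.2 was 2.09-fold higher (1.95 to 2.25), or under 2-fold when reads were summed over its locus (171 CPM at 48 h and 92.6 CPM at 24 h). The lowest were NONRATT002849.2, 364-fold lower (142 to 1339), and NONRATT018275.2, 3.74-fold lower (3.42 to 4.09). NONRATT002642.2, NONRATT004088.2 and NONRATT007996.2 were 3.56-fold, 3.71-fold and 2.87-fold lower.

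Over both media, NONRATT004188.2 was higher and NONRATT004088.2 lower at 48 h by over 2-fold in each medium. Behind them in the ranking by the smaller ratio came NONRATT020532.2 (3410 nt in 1 block, chromosome 4, 97760128 to 97763537), 1.31-fold higher in high glucose and 1.21-fold higher in normal glucose. NONRATT009775.2 (2173 nt in 1 block, chromosome 14, 16370515 to 16372687) was 1.27-fold lower in high and 1.45-fold lower in normal glucose. With medium as a covariate, 0 of the 97 members passed in edgeR (quasi-likelihood), where 0.0% of the measured transcripts were called, and the smallest adjusted p was 0.317. At an unadjusted p under 0.05, 3 members were higher and 2 lower, against 4.25% of the measured transcripts (1.6% higher and 2.65% lower). DESeq2, and edgeR without the filter (0.396% called), called 2 members, both listed by a mean share that their highest library raised. DESeq2 called NONRATT004188.2 as higher and NONRATT004088.2 as lower (0.492% of the measured transcripts called), with adjusted p-values of 5.60e-05 and 6.04e-06. Over the 11 alternatives these ran from 5.60e-05 to 1.00 and from 6.04e-06 to 1.00.

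**Figure D4:**
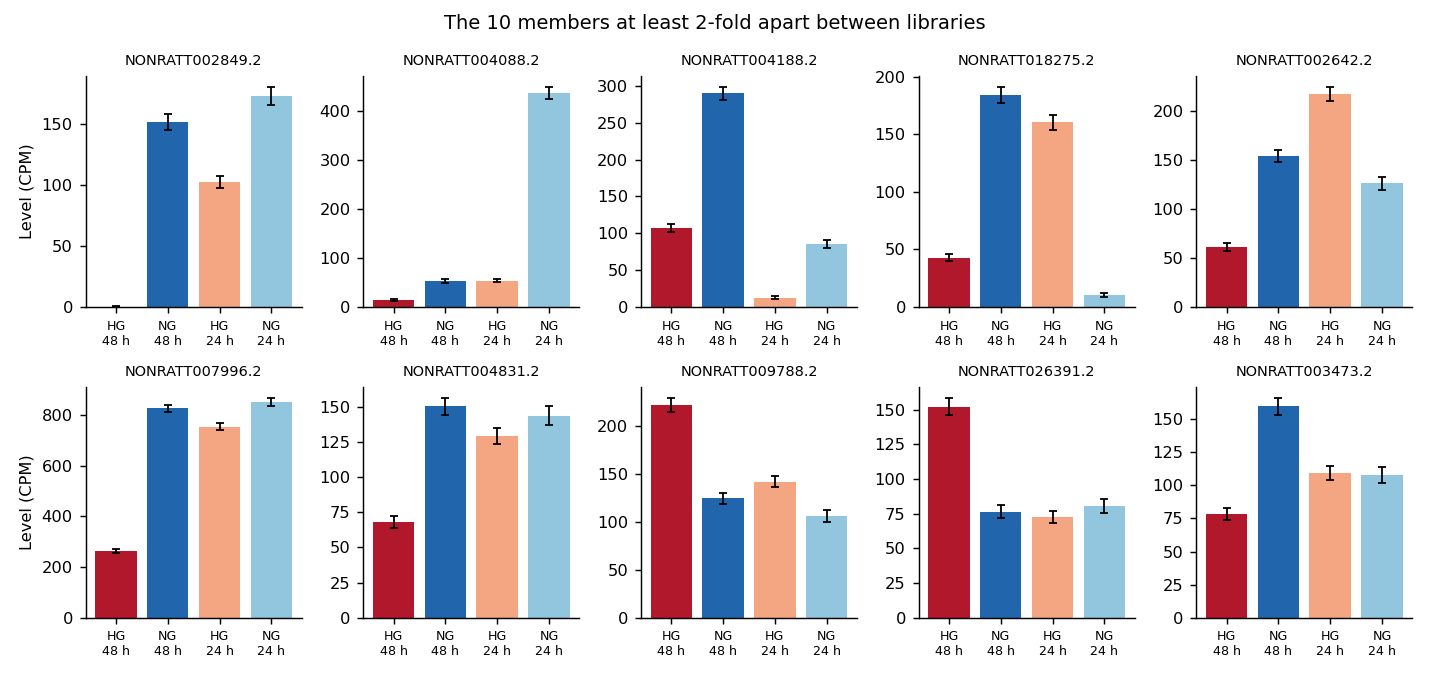
Level (CPM, bars from 0) of the 10 members at least 2-fold apart between libraries, in high glucose (HG) and normal glucose (NG) at 48 h and at 24 h, with 95% Poisson counting intervals. Each panel has its own vertical scale, and high glucose at 48 h is the lowest library in 6 panels and the highest in 2.

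The high glucose library at 48 h took part in most of the large ranges. Of the 10 members with a ratio of highest to lowest CPM of at least 2, that library was lowest for 6 and highest for 2. Without it, 3 of the 97 members had a ratio of at least 2 over the remaining libraries, NONRATT004088.2, NONRATT004188.2 and NONRATT018275.2, against 19.9% of the measured transcripts. Leaving out any 1 of the other libraries left 9, against 28.1% to 28.8% of the measured transcripts. The median ratio of the members without the high glucose library at 48 h was 1.18, and 88 members were under 1.5. Leaving out another library gave medians of 1.19 to 1.25, with 75 to 79 members under 1.5. A ratio over fewer libraries cannot exceed that over all of them, so a fall in the median is not particular to that library. Without the high glucose library at 48 h, only normal glucose at 48 h and high glucose at 24 h differ in both medium and time. This pair had 1 of the 97 members past 2-fold, against 4.59% of the measured transcripts. Whether the difference of the high glucose library at 48 h comes from the medium, the time or the culture cannot be told apart.

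The 3 members with large ranges among the other libraries each followed another pattern. NONRATT004088.2 was high in normal glucose at 24 h and lowest in high glucose at 48 h. NONRATT004188.2 was highest in normal glucose at 48 h and lowest in high glucose at 24 h. NONRATT018275.2 was high in normal glucose at 48 h and in high glucose at 24 h, and low in the remaining libraries. Their ratios of highest to lowest CPM were 30.1, 23.0 and 17.5.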

How the data were processed

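Members, lists and tests were chosen with earlier results of these data known. Strand-specific libraries of total RNA were made with a TruSeq kit and sequenced on a HiSeq 2500, per the labels' protocols. The submitters' processing notes list TopHat2 2.1.0 and Cufflinks without saying what each did, and the builds rn6 and Rnor_6.0. How reads were counted, and whether by strand, is not stated. The deposited values are raw read counts per transcript (file headers), and a transcript not listed was taken as 0. FPKM values stand beside them, per the file headers. Lengths were deposited in 1 table, and 1219 others were recovered from count and FPKM. The library total was recovered as the median that gives count, length and FPKM together over transcripts with more than 50 reads. Whether it counts reads or fragments is not stated.

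Ratios are log2 (CPM + 1) with a 2-fold threshold, and folds are ratios of CPM with exact (Clopper-Pearson) 95% counting intervals. These cover counting error only, since PCR duplicates cannot be told from separate molecules. All 97 members passed the filter. edgeR 4.0.16 (glmQLFit, glmQLFTest) was fitted to all 7321 measured transcripts with medium and time as terms and 1 residual degree of freedom, with Benjamini-Hochberg adjustment over all of them. DESeq2 1.42.0 and limma 3.58.1 were alternatives. The p-values rest on the spread between these libraries. Named transcripts are the 10 most abundant members, the 3 steadiest and 3 most variable, the 2 highest and 2 lowest in each comparison, and any past the threshold.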

Additional observations from a re-analysis of the deposited data

Results flagged for a closer look

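NONRATT018275.2 had opposite responses past 2-fold. Its log2 ratio of high over normal glucose was -2.08 at 48 h and 3.81 at 24 h, and its log2 ratio of 48 h over 24 h was -1.88 in high glucose and 4.01 in normal glucose. These pairs of ratios rest on the same 4 libraries, with 1 library per group, and the difference between them was not tested.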

How the results depend on the processing

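Each group has 1 library, so precision is limited by the unknown spread between cultures and not by depth. No paired analysis was possible because the labels carry no replicate numbers that could form a block, and the main fits already hold medium and time as terms. The fits with a library left out, and an alternative without a term for the other factor, held only 1 of these terms. The counts of members past 2-fold stayed within 1.5 times under the other scalings, pseudocounts of 0.1 and 5, the refilled list of 100 and sums over overlapping transcripts. At a 1.5-fold threshold they were 17 and 6 for glucose at 48 h and 24 h, and 5 for 48 h over 24 h in normal glucose. With members chosen by mean FPKM they were 15 and 5 for glucose at 48 h and 24 h and 14 for time in high glucose, and 20 members had a ratio of highest to lowest CPM of at least 2. Those members took 19.4% and 20.6% of the lncRNA counts in high and normal glucose at 48 h and 20.2% and 21.1% at 24 h. The refilled 100 took 24.5% and 25.6% at 48 h and 24.6% and 25.6% at 24 h. The median ratio of highest to lowest CPM was 1.26 with the refilled 100, 1.45 with members by FPKM, 1.28 with each other scaling, and 1.18 to 1.25 with a library left out. The members past 2-fold between libraries numbered 3 to 9 with a library left out, and 8 with each other scaling. Members were also taken from 1 library alone, with the ratio taken over the other 3 libraries. Those past 2-fold were then 4 from high glucose and 12 from normal glucose at 48 h. From the 24 h libraries they were 12 from high and 9 from normal glucose. These settings for the 2-fold count were chosen after seeing the data. DESeq2 and edgeR without the filter each called 2 members for glucose and the same 2 for time. Both were listed by a mean share that their highest library raised. With a library left out, 0 members were called for glucose and 0 to 1 for time. The call was NONRATT002849.2, lower at 48 h in edgeR without the normal glucose library at 48 h. That fit left high glucose as the only 48 h library, where this member stood at 0.281 CPM. The library left out held 151 CPM, against 102 CPM in high and 173 CPM in normal glucose at 24 h. The call therefore rests on 1 library and cannot show a difference between the times.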
